A study of Gracilariopsis lemaneiformis with 12 samples.

Results

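In 36 clusters of related contigs of the red seaweed Gracilariopsis lemaneiformis, at least 1 contig differed strongly between tissue treated with indole-3-acetic acid (IAA) and untreated tissue, while the summed level of the cluster stayed nearly level. The clusters were picked from FPKM values (fragments mapped to a sequence, corrected for its length and for the size of the library) by limits set on the log2 of a group's mean FPKM plus 1. A cluster was kept where its summed FPKM differed by less than 0.3 between IAA and control on both days, and by less than 0.5 between day 3 and day 1 in both IAA and control tissue. It also needed a contig whose highest group mean was at least 5 FPKM, whose IAA and control means differed by at least 1 on a day, and whose IAA and control libraries did not overlap that day. Of 2479 clusters, 2247 held 2 or more contigs, 1625 of these had a steady sum, and 36 met every condition. The 36 clusters hold 270 contigs, of which 42 met the contig condition. The IAA and control values of both days chose these clusters, so those differences are given as descriptions with no test.

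The libraries came from the strain labelled 981 and form 4 groups of 3. These are tissue treated with 100 µM IAA for 1 day, untreated controls at day 1, tissue treated with 100 µM IAA for 3 days, and untreated controls at day 3. All carry the tissue label rhizoids, but the design text of the series also names branches and leaves unclear whether the tissue was the same on both days, so a comparison of day 3 with day 1 may hold a difference in tissue. Nothing states that the 3 libraries of a group came from separate cultures, and p-values below measure the spread between libraries, which may be partly technical. The tissue label could not be checked against marker genes, because no file used here gives names, functions or sequences for the IDs. For the same reason no sequence or gene role is given below.

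Auxins, of which IAA is the best known, are growth hormones of land plants that are also found in many seaweeds. A cell can change which transcript of a gene it makes without changing the gene's total output, through alternative splicing, other transcript ends, or use of another allele or gene copy. In a transcriptome assembled without a genome, a cluster collects contigs with shared sequence, which can be isoforms, alleles, near-identical gene copies or fragments of 1 transcript. Reads that match several sister contigs have to be divided among them by the quantifier. The number after CL in an ID is read here as such a cluster, which follows from the form of the ID and is stated by no label. Every value of a single contig below is therefore uncertain as to how shared reads were divided, while the cluster sum depends on that division only through the differing lengths of the contigs.

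The FPKM of a library summed to 291205 to 308835, and 6612 to 7934 of the 30780 sequences in the table had a value of 0 in it. The 270 contigs together made up 0.964% to 1.04% of the summed FPKM of each library. Absolute depth is unknown. Among low Unigene sequences, which are not in clusters, 65.2% of 10891 values lay within 0.1 of a whole multiple of the value of 1 read, and from them the relative depth of the libraries was 0.978 to 1.02. Among low cluster contigs 33.5% of 535 values did so, where evenly spread values would give 20%. Scaling the libraries by median-of-ratios size factors, which were lowest in the day-3 controls at 0.842 to 0.867, left 17 clusters under the same rule, of which 10 were among the 36. With those factors the sums of 22 of the 36 clusters were no longer steady. Whether a sum counts as steady thus rests on the scaling, whereas the share of a contig within its cluster in a library is unaffected by a factor applied to the whole library.

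The 36 clusters were larger than most. They held 2 to 23 contigs with a median of 6, against a median of 2 in the 1589 other clusters with a steady sum. Clusters of 2 contigs made up 3 of the 36 and 884 of the 1589. The mean summed level of the 36 ran from 17.3 to 258 FPKM with a median of 71.5 FPKM, against a median of 35.7 FPKM in the other steady clusters. Of the 270 contigs, 193 averaged 1 FPKM or more across the 12 libraries and 140 had a group mean of at least 5 FPKM. None was listed at 0 in all 12 libraries.

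At day 1, 25 contigs in 24 of the clusters met the rule, 13 higher and 12 lower in IAA. Among all 3558 contigs of clusters with 2 or more contigs and a group mean of at least 5 FPKM, 57 (1.6%) met the same limits of size and overlap at day 1. At day 3, 19 contigs in 15 clusters met the rule, 11 higher and 8 lower in IAA, and the background share was 80 of 3558 (2.25%). Within clusters of steady sum the shares were 0.835% at day 1 and 0.634% at day 3, which the choice of clusters fixes. Differences of the chosen contigs on the log2 scale were 1.01 to 3.36 in size at day 1 and 1.02 to 2.63 at day 3. For all 3558 contigs the median size was 0.13 at day 1 and 0.14 at day 3. Only 3 clusters (CL116, CL498 and CL2478) met the rule on both days, 21 did so at day 1 alone and 12 at day 3 alone. Cluster sums, which the rule held within its limits, differed by -0.22 to 0.28 at day 1 and by -0.21 to 0.25 at day 3 on the log2 scale. At day 1, 7 sums were higher and 12 lower in all IAA libraries than in all control libraries, and at day 3 4 were higher and 20 lower. The share lower was 33.3% of the 36 sums at day 1 and 55.6% at day 3. Of the other steady sums, 11.1% were higher and 29.1% lower at day 1, and 17.2% were higher and 29.3% lower at day 3.

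The part of the cluster sum that sat in other contigs in IAA than in control, called the share difference here, was often small. It is the sum of the absolute differences in mean share over the contigs of a cluster, divided by 2, so that 100% would mean a complete replacement. At day 1 it ran from 2.50% to 44.7% over the 24 clusters with a median of 12.5%, and 11 of them lay under 10%. At day 3 it ran from 6.44% to 40.8% over the 15 clusters with a median of 9.76%, and 8 lay under 10%. The other steady clusters had medians of 3.16% at day 1 and 3.18% at day 3. Share differences between libraries of 1 group give the spread that replicates allow. At day 1 the median over pairs of an IAA and a control library was 12.7% in the 24 clusters, against 5.07% between libraries of 1 group. At day 3 it was 10.9% between IAA and control libraries and 4.54% between libraries of 1 group in the 15 clusters. The rule chose these clusters for a difference without overlap on that day, which favours the larger values between IAA and control, so nothing is read from them. In the other steady clusters the medians between IAA and control libraries were 3.87% at day 1 and 4.02% at day 3, against 3.28% between libraries of 1 group.

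**Figure D1:**
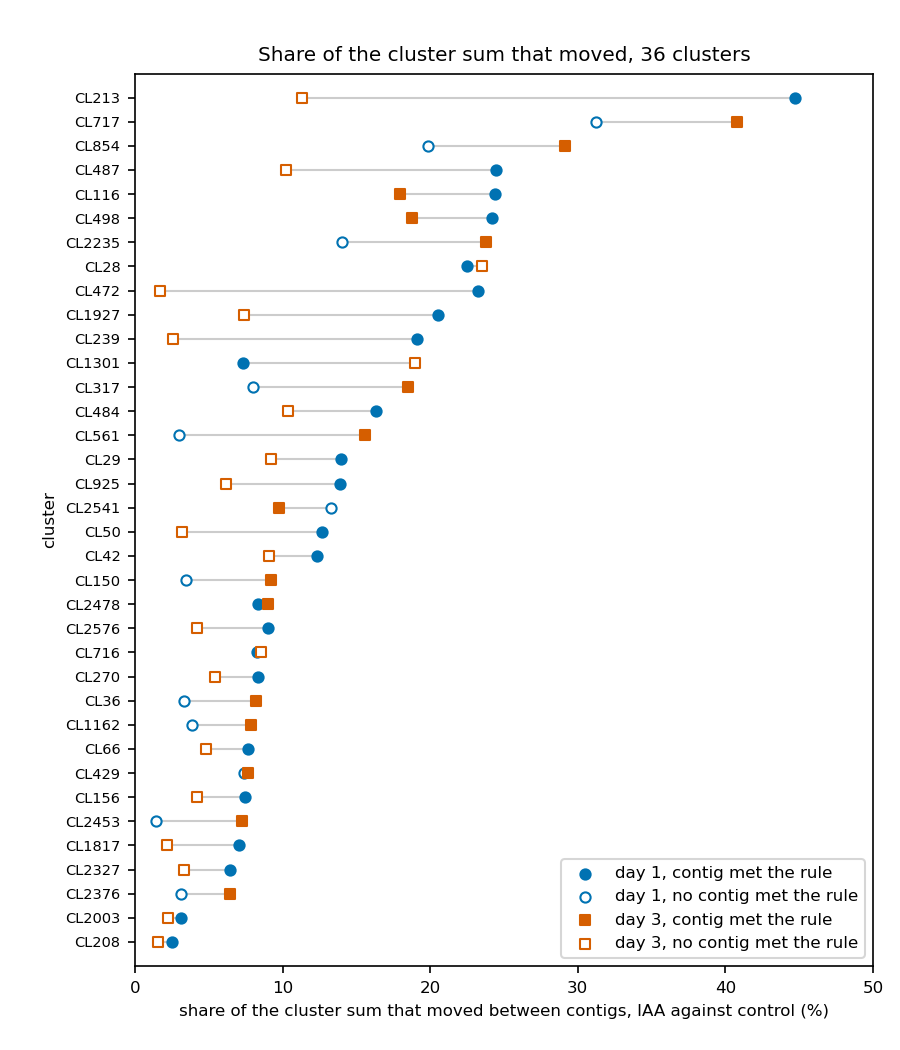
Share of the cluster sum in other contigs in IAA than in control, in percent, for each of the 36 clusters at day 1 (circles) and day 3 (squares); filled symbols mark a day on which a contig met the rule. CL213 reached 44.7% at day 1 and CL717 40.8% at day 3, while most clusters lay under 20% on both days.

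At like size the medians stood closer, but part of that may come from a change in the clusters counted. Among other steady clusters with at least 6 contigs and a mean sum no lower than that of the lowest of the 36, 164 in number, the median share difference was 5.23% at day 1 and 5.64% at day 3. Their median between libraries of 1 group was 6.03%. The 19 of the 36 clusters that had at least 6 contigs had medians of 8.99% at day 1 and 7.40% at day 3, and 4.54% between libraries of 1 group. These 19 include clusters with no contig chosen on the day in question, which the earlier medians left out.

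A chosen contig was seldom the main contig of its cluster. Its highest mean share in any group was 2.34% to 74.9% with a median of 13.9%, under 10% for 16 of the 42 contigs and under 50% for 39. In 27 of the 36 clusters the same contig led in all 4 groups. The leading contig differed between IAA and control at day 1 in 5 of 24 clusters (CL29, CL50, CL213, CL498 and CL925) and at day 3 in 2 of 15 (CL317 and CL717), which are named after their values were seen. The working description of these clusters as switching contigs therefore applies to few of them. In most, a minor contig differed beside a leading contig that kept its rank. The level or share of the leading contig could still differ, as in CL487 and CL1927 below.

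The plainest exchange was in CL213, a cluster of 2 contigs. CL213.Contig2_All had 18.2, 19.3 and 17.8 FPKM in IAA libraries at day 1, against 6.62, 8.88 and 7.21 FPKM in day-1 controls. Its only sister, CL213.Contig1_All, had 6.52, 5.18 and 8.22 FPKM in IAA and 18.8, 17.4 and 19.6 FPKM in control. The 2 contigs stood in opposite order in IAA and control without overlap, and the sum was 24.7, 24.4 and 26.02 FPKM in IAA against 25.5, 26.3 and 26.8 FPKM in control. The share of CL213.Contig2_All was 73.6% ± 5.20 in IAA and 28.9% ± 4.24 in control (SD, n = 3 each). At day 3 it was 36.4% ± 2.48 in IAA and 25.1% ± 2.80 in control, a share difference of 11.3% in the same direction, and CL213.Contig1_All led in both groups.

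CL487, with 3 contigs, had the next largest share difference at day 1, 24.5%, among the 24 clusters with a contig chosen that day. CL717, with no contig chosen at day 1, had 31.2%. CL487.Contig2_All had 18.9, 20.5 and 20.6 FPKM in IAA libraries, against 8.59, 5.84 and 5.02 FPKM in controls. CL487.Contig3_All, the leading contig in every group, had 32.3, 36.1 and 32.1 FPKM in IAA and 42.5, 50.4 and 51.3 FPKM in control. The IAA libraries were all higher for the one and all lower for the other. At day 3 CL487.Contig2_All had 5.24, 10.1 and 5.95 FPKM in IAA and 8.30, 14.0 and 17.8 FPKM in control, with overlap, and CL487.Contig3_All had 54.7 ± 1.93 FPKM in IAA and 47.6 ± 4.45 FPKM in control (SD, n = 3 each). The order of IAA and control was thus the opposite of day 1 for both contigs.

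At day 3 the largest share difference, 40.8%, was in CL717, a cluster of 7 contigs at 25.7 ± 0.476 FPKM in IAA and 26.1 ± 0.467 FPKM in control (SD, n = 3 each). CL717.Contig9_All had 0, 0 and 0.95 FPKM in IAA libraries and 5.22, 9.91 and 6.25 FPKM in controls. CL717.Contig7_All had the largest surplus of share in IAA, with 5.24, 4.15 and 0 FPKM in IAA libraries, and was listed at 0 in all 9 other libraries. The contig overlapped between the groups because 1 IAA library lacked it. At day 1 the values of CL717.Contig9_All were 0, 2.07 and 5.43 FPKM in IAA and 7.06, 2.03 and 11.7 FPKM in control. Its 3 libraries of a group thus spread widely, while the cluster sums differed little between libraries of a group.

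CL854, with 11 contigs, followed at day 3 with a share difference of 29.1%. CL854.Contig6_All had 10.5, 12.3 and 7.26 FPKM in IAA libraries, against 4.40, 4.19 and 3.61 FPKM in controls. CL854.Contig5_All, the leading contig in all groups, had 10.8, 11.3 and 14.0 FPKM in IAA and 16.4, 19.7 and 16.7 FPKM in control. Neither contig overlapped between the groups. At day 1 CL854.Contig6_All had 6.09, 11.5 and 3.35 FPKM in IAA and 12.5, 12.5 and 9.43 FPKM in control, so its means stood in the opposite order and its libraries overlapped.

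**Figure D2:**
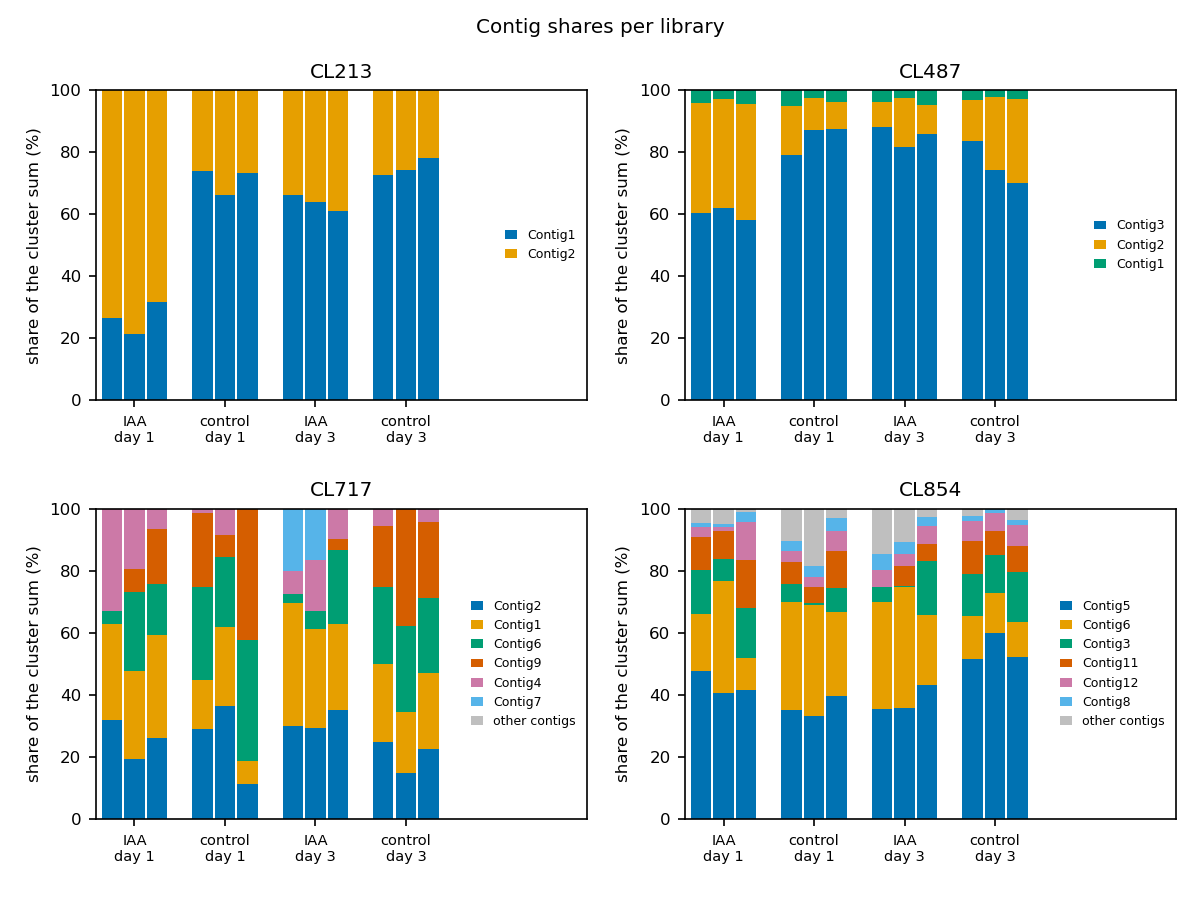
Share of each contig in the cluster sum, in percent, for each of the 12 libraries in the clusters with the largest share differences among those with a contig chosen at day 1 (CL213 and CL487) and at day 3 (CL717 and CL854); each bar is 1 library and contigs past the sixth are pooled. Contig2 of CL213 holds 73.6% on average in the IAA libraries of day 1 and 28.9% in their controls, and bars of 1 group differ more in CL717 than in CL213.

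In FPKM, the chosen contigs differed by 3.11 to 19.4 between IAA and control at day 1, with a median of 6.92, and by 2.01 to 10.6 at day 3, with a median of 5.67. The summed sisters differed in the opposite direction for 18 of the 25 contigs of day 1 and 13 of the 19 of day 3, and in the same direction as the contig for 7 at day 1 and 6 at day 3. In the last 2 counts the sisters as a whole did not offset the contig. At least 1 single sister differed in the opposite direction for every chosen contig but 1, CL2003.Contig1_All at day 1, whose 2 groups stood at 2.38, 4.75 and 0 FPKM in IAA and 5.24, 5.78 and 8.54 FPKM in control. For 16 of the 25 contigs of day 1 and 13 of the 19 of day 3, a single opposite sister amounted to at least 50% of the contig's own FPKM difference. The medians of that percentage were 55.2% and 70.3%. In 17 of 24 clusters at day 1 and 12 of 15 at day 3, an opposite sister also had no overlap between IAA and control libraries. The condition of a steady sum favours such opposite differences by construction. An opposite sister without overlap is also easier to find among many contigs, and other clusters were not counted for it. Chosen contigs in both directions within 1 cluster were found in CL213 at day 1 and CL717 at day 3, and in no other of the 36 clusters.

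Whether the contigs chosen on 1 day also differed on the other was asked in libraries that had not chosen them, apart from conditions that used both days. These were the steadiness of the cluster sum and the highest group mean of at least 5 FPKM. Of contigs chosen at day 1, CL29.Contig21_All reached that mean only at day 3. Of those chosen at day 3, CL116.Contig2_All, CL150.Contig1_All and CL717.Contig4_All reached it only at day 1. Of the 25 contigs chosen at day 1, 6 passed the test at day 3 (24%), by limma on log2(FPKM + 1) with Benjamini-Hochberg adjustment over 14065 sequences and an adjusted p under 0.05. The share called at day 3 was 38% of all sequences tested and 23.3% of the 4932 cluster contigs among them. With FPKM as deposited, the contigs chosen at day 1 were thus called at day 3 about as often as cluster contigs in general. With median-of-ratios scaling, 7 of the 25 passed, against 49.7% of all sequences tested and 46.4% of cluster contigs. Of the 6 called with FPKM as deposited, 2 went in the same direction as at day 1 and 4 in the opposite direction. Over all 25, 14 had the same sign on both days, and the median size of the difference was 0.36 at day 3 against 1.38 at day 1 in the same model.

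Of the 19 contigs chosen at day 3, 4 passed the same test at day 1 (21.1%), 3 in the same direction and 1 in the opposite direction. CL717.Contig4_All among the 3, and CL116.Contig2_All, the 1 opposite, reached the limit of 5 FPKM only at day 1, so their calls are not free of the choice. The split by direction was not stable: without replicate 2 of the day-1 IAA libraries 2 went in the same direction and 3 in the opposite direction, and without replicate 1 of the day-1 controls 2 went each way. The share called at day 1 was 13.9% of all sequences tested and 14.6% of cluster contigs. With median-of-ratios scaling, 2 of the 19 passed, 1 in each direction, against a background of 11%. The same sign was held by 12 of the 19, with a median size of 0.61 at day 1 against 1.29 at day 3. Across the contigs, the differences of the 2 days had a Pearson's r of 0.057 and a Spearman's rho of 0.095 for the 25 chosen at day 1, and of -0.0072 and 0.044 for the 19 chosen at day 3. These are given as descriptions, since contigs share libraries and clusters.

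**Figure D3:**
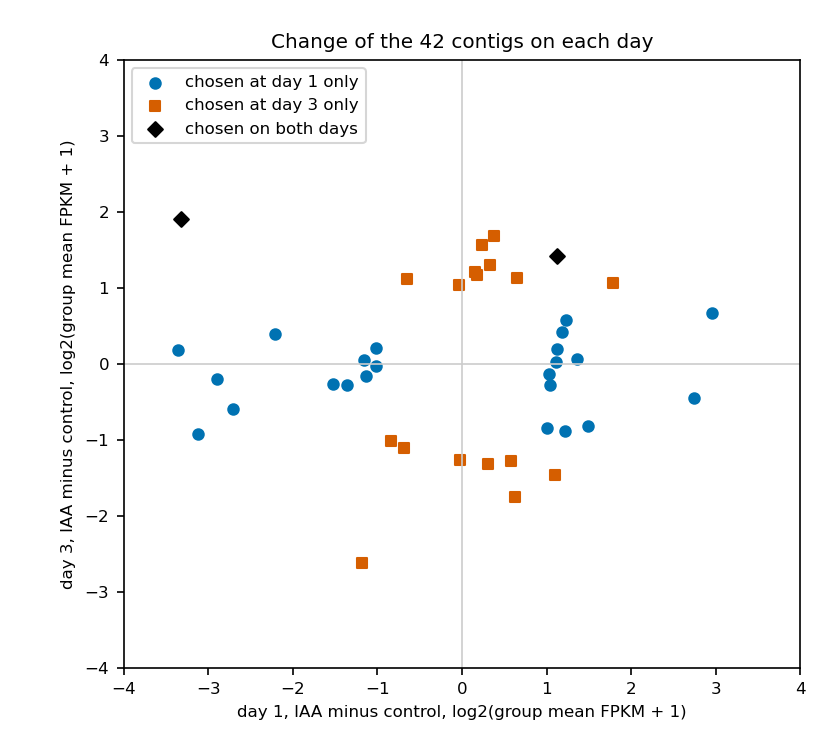
IAA minus control at day 3 (vertical) against day 1 (horizontal) for the 42 chosen contigs, as differences in log2(group mean FPKM + 1); symbols show the day on which a contig met the rule. Contigs chosen on 1 day spread around 0 on the other, and of the 2 chosen on both days CL498.Contig8_All is higher in IAA on each, while CL116.Contig2_All is lower in IAA at day 1 and higher at day 3.

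CL498.Contig8_All was higher with IAA on both days. It had 13.4, 12.6 and 13.0 FPKM in IAA libraries at day 1 against 3.81, 6.32 and 6.09 FPKM in controls, and 8.89, 9.35 and 6.69 FPKM in IAA libraries at day 3 against 2.65, 2.81 and 2.01 FPKM in controls. The groups did not overlap on either day. By limma it rose by 1.15 ± 0.17 on the log2(FPKM + 1) scale at day 1 (SE; adjusted p = 0.000644) and by 1.41 ± 0.17 at day 3 (SE; adjusted p = 7.96e-05). As the contig was chosen on both days, each of these tests is free only of the other day's choice. The same holds for CL116.Contig2_All below, except that it reached the limit of 5 FPKM only in day-1 controls. Its sister CL498.Contig1_All had 7.10, 8.61 and 9.14 FPKM in IAA against 14.2, 11.3 and 12.4 FPKM in control at day 1, and 9.49, 9.26 and 9.80 FPKM in IAA against 14.8, 11.8 and 14.2 FPKM in control at day 3. The sister was lower in IAA without overlap on both days, and the cluster sum was 32.5 ± 0.736 FPKM in IAA and 36.8 ± 0.956 FPKM in control at day 3 (SD, n = 3 each).

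CL116.Contig2_All was listed at 0 in all 3 IAA libraries at day 1, against 9.12, 11.3 and 6.55 FPKM in controls. At day 3 it had 0.97, 4.83 and 2.44 FPKM in IAA libraries and was listed at 0 in all 3 controls. The contig was therefore present in 1 of the 2 groups each day, and the groups were opposite. By limma it fell by 3.29 ± 0.31 at day 1 (SE; adjusted p = 2.51e-05) and rose by 1.77 ± 0.31 at day 3 (SE; adjusted p = 0.00127). Its sister CL116.Contig1_All had 1.04, 8.66 and 7.85 FPKM in IAA against 1.56, 0 and 3.68 FPKM in control at day 1, and 4.58, 7.57 and 1.56 FPKM in IAA against 9.03, 7.27 and 6.41 FPKM in control at day 3, with overlap on both days. The cluster sum was 35.5 ± 0.917 FPKM in IAA and 37.1 ± 2.29 FPKM in control at day 1, and 31.1 ± 0.695 FPKM in IAA and 30.1 ± 0.627 FPKM in control at day 3 (SD, n = 3 each).

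Among contigs chosen at day 1, CL213.Contig2_All also rose at day 3, with 7.94, 8.65 and 9.28 FPKM in IAA libraries against 6.87, 6.02 and 5.65 FPKM in controls (log2 change 0.42 ± 0.10 SE; limma adjusted p = 0.00681). That call was lost with median-of-ratios scaling (adjusted p = 0.122) and with quantile normalization (adjusted p = 0.0762), although its share was higher in all 3 IAA libraries than in any control. CL1301.Contig1_All went the other way at day 3. At day 1 it had 8.72, 12.8 and 11.9 FPKM in IAA libraries against 4.19, 4.48 and 3.93 FPKM in controls, and at day 3 31.8, 26.01 and 25.8 FPKM in IAA libraries against 53.6, 49.2 and 53.9 FPKM in controls, a fall of 0.89 ± 0.12 (SE; limma adjusted p = 0.000211). Its only sister, CL1301.Contig2_All, had 89.8 ± 0.913 FPKM in IAA against 109 ± 0.651 FPKM in control at day 1, and 77.3 ± 1.09 FPKM in IAA against 62.7 ± 1.18 FPKM in control at day 3 (SD, n = 3 each). The pair held 26.4% and 73.6% of the sum in IAA and 45.4% and 54.6% in control at day 3.

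Among contigs chosen at day 3, CL717.Contig4_All rose at day 1 by 1.80 ± 0.54 (SE), at the limit of the test with a limma adjusted p of 0.0498. The contig met the limit of 5 FPKM only through its IAA mean of 5.65 FPKM at day 1, so this test is not free of its choice. Its libraries were at 9.62, 5.34 and 1.99 FPKM in IAA and 0.41, 2.38 and 0 FPKM in control at day 1, with overlap, and the call was lost under most of the alternatives tried. CL2235.Contig1_All, the lower contig of a cluster of 2, had 3.90, 2.50 and 2.97 FPKM in IAA libraries and 6.24, 8.52 and 8.83 FPKM in controls at day 3. At day 1 it had 3.70, 4.84 and 3.41 FPKM in IAA libraries against 6.12, 8.64 and 6.27 FPKM in controls, a fall of 0.68 ± 0.18 (SE; limma adjusted p = 0.0245). The adjusted p was 0.052 with median-of-ratios scaling. Among day-1 libraries, it was 0.0914 without replicate 3 of IAA, 0.0741 without replicate 1 of IAA and 0.094 without replicate 2 of the controls. Its sister CL2235.Contig2_All had 12.7 ± 0.727 FPKM in IAA and 10.2 ± 1.37 FPKM in control at day 3 (SD, n = 3 each).

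The direction of the share differences of a whole cluster can be compared between days by the cosine of the angle between them, which is 1 for the same direction and -1 for the reverse, and can only be either of these in clusters of 2 contigs. It was above 0 in 20 of the 36 clusters (55.6%) and in 759 of the 1437 other steady clusters where it could be computed (52.8%). It was above 0.8 in 7 clusters (CL28, CL36, CL213, CL317, CL498, CL717 and CL2235) and below -0.8 in 6 (CL42, CL487, CL854, CL1162, CL1301 and CL1927). The counts beyond 0.8 were not made for the other steady clusters, and CL213, CL1301 and CL2235 hold 2 contigs. The cosine takes no account of size. At day 1 the share difference was 3.31% in CL36 and 3.89% in CL1162. The median between libraries of 1 group was 4.80% over the 36 clusters. The direction of share differences was thus alike on both days in some clusters and reversed in others, without regard to their size. In clusters with no chosen contig on a day, IAA and control libraries still differed more in share than libraries of 1 group in 10 of 12 clusters at day 1 (83.3%) and in 16 of 21 at day 3 (76.2%). In the other steady clusters this was so in 52% at day 1 and 52.9% at day 3. Those clusters were not matched in size, and the spread within groups was taken over all groups. The condition of no overlap favours a small spread on the day that chose a cluster, so nothing is read from the higher shares.

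Over the 4 groups, a contig was counted as high in every group whose mean was at least 50% of its highest group mean. Of the 42 contigs, 13 were high in 1 group, 15 in 2 and 14 in 3. The most frequent patterns, each with 6 contigs, were high in IAA at day 1 alone and high in IAA on both days. CL925.Contig3_All was of the first kind, with 27.2, 26.2 and 23.5 FPKM in IAA libraries at day 1, 11.4, 9.94 and 12.3 FPKM in day-1 controls, and no more than 10.97 FPKM in any day-3 library. It led its cluster of 21 contigs in IAA at day 1, with 23.4% ± 1.33 of the sum against 12.1% ± 1.39 in control (SD, n = 3 each).

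A contig low in IAA at day 1 alone was found 5 times. CL1927.Contig14_All had 1.66, 0 and 1.61 FPKM in IAA libraries at day 1, against 18.4, 23.8 and 19.2 FPKM in their controls, and 16.6 to 25.7 FPKM in the 6 libraries of day 3. Its share was 1.33% ± 1.16 in IAA and 21.4% ± 2.39 in control at day 1, while the leading contig CL1927.Contig7_All held 74.6% ± 1.74 in IAA and 56.3% ± 1.78 in control (SD, n = 3 each). The contrast was in IAA libraries of day 1, and by day 3 the shares of CL1927.Contig14_All were 23.5% ± 2.84 in IAA and 18.5% ± 3.05 in control (SD, n = 3 each). A contig low in IAA at day 3 alone was found 4 times, and one high in control at day 1 alone 4 times.

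A contig low in day-3 controls alone was found 3 times. CL561.Contig2_All had 9.38, 9.53 and 7.33 FPKM in IAA libraries at day 3 and 2.82, 4.03 and 4.42 FPKM in controls, against 8.98 to 11.4 FPKM over the 6 libraries of day 1. CL561.Contig4_All had 14.7, 16.2 and 13.0 FPKM in IAA at day 3 and 21.6, 20.3 and 16.8 FPKM in control, without overlap. A further 3 contigs were high in IAA at day 1 and in control at day 3. Among them, CL484.Contig33_All had 6.15, 3.87 and 5.28 FPKM in IAA and 1.42, 1.43 and 3.11 FPKM in control at day 1, and 1.63, 0.18 and 4.95 FPKM in IAA and 2.2, 2.89 and 2.63 FPKM in control at day 3.

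**Figure D4:**
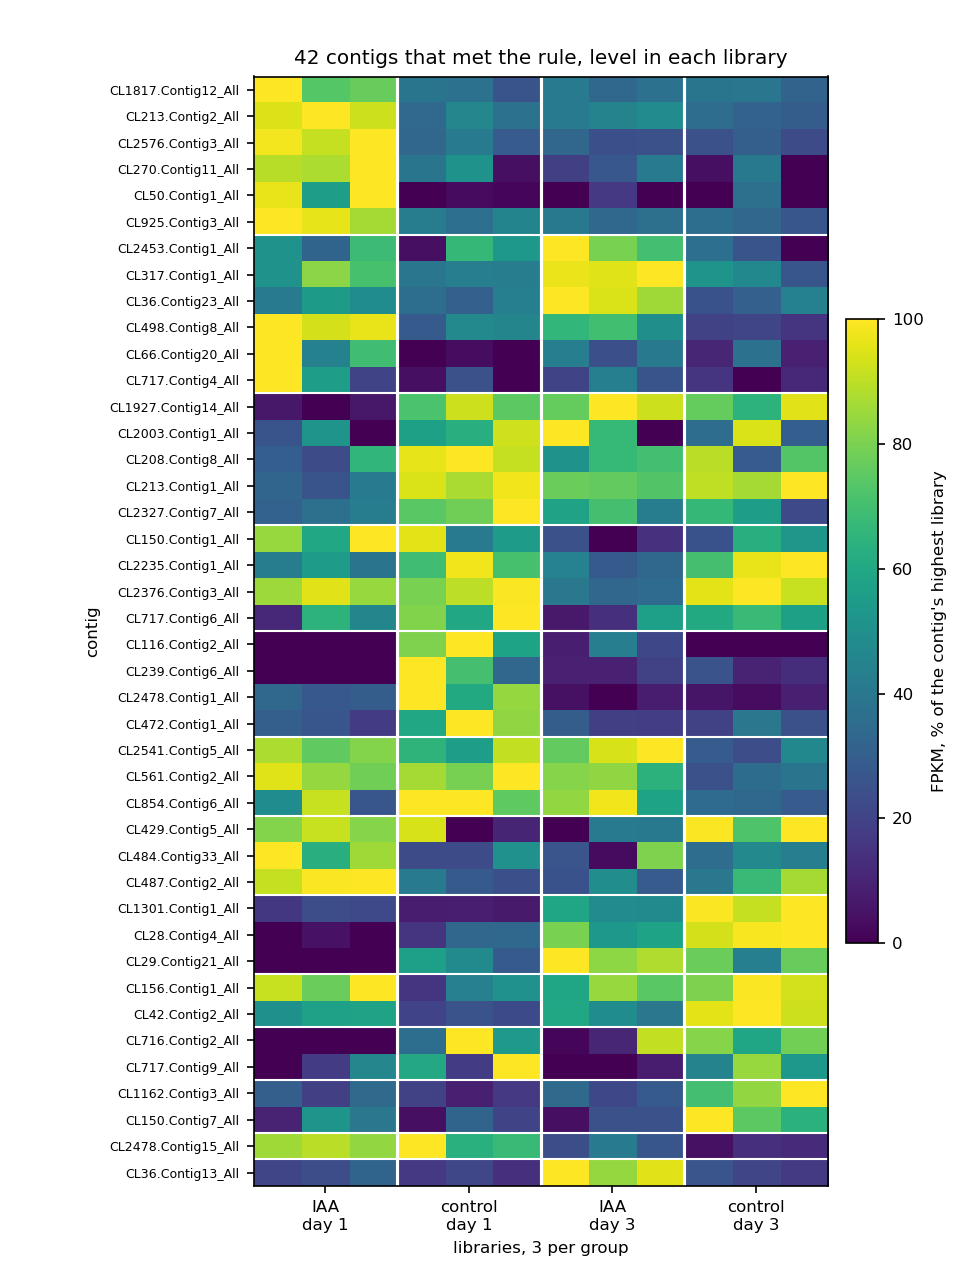
FPKM of the 42 chosen contigs in each of the 12 libraries, as a percentage of the contig's highest library (colour scale from 0 to 100), with IAA left of control on each day; white lines separate groups and patterns. The first 6 contigs are brightest in the IAA libraries of day 1, and CL116.Contig2_All is at 0 in the IAA libraries of day 1 and in the controls of day 3.

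The same clusters also differed in share between days, within treatment. The share difference of day 3 against day 1 had a median of 10.1% in IAA, from 1.58% to 53.1%, and of 8.45% in controls, from 2.06% to 55.8%, against medians of 3.56% and 3.66% in the other steady clusters. These comparisons use the libraries that chose the clusters and have no test. CL28 had the highest value in both. CL28.Contig4_All had 26.3, 17.6 and 19.1 FPKM in IAA libraries of day 3 and 0, 1.58 and 0 FPKM in those of day 1, and in controls 30.9, 32.7 and 33 FPKM at day 3 and 5.02, 10.9 and 11.1 FPKM at day 1. CL28.Contig5_All stood the other way, at 15.1 ± 1.95 FPKM at day 3 and 30.1 ± 2.14 FPKM at day 1 in IAA, and at 8.12 ± 1.71 FPKM at day 3 and 25.4 ± 0.231 FPKM at day 1 in controls (SD, n = 3 each). On both days CL28.Contig4_All had a lower share in IAA than in control, 53.1% ± 8.83 in IAA against 72.5% ± 3.83 in control at day 3 and 1.44% ± 2.50 in IAA against 23.5% ± 7.69 in control at day 1 (SD, n = 3 each). By the same limits of size and overlap, 9 of the 42 contigs were higher and 12 lower at day 3 than at day 1 in IAA, and 7 were higher and 7 lower in controls. Of the 3558 contigs of all clusters, 1.77% were higher and 1.29% lower at day 3 in IAA, and 1.18% higher and 3.71% lower in controls. The 42 were chosen on these same libraries, so nothing is read from their larger shares.

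Sister contigs also varied in opposite directions between libraries of 1 group, where no treatment differed. The median coefficient of variation within groups was 1.90% for the 36 cluster sums and 23.0% for the chosen contigs. The sums stand at higher levels than most chosen contigs, and a sum of independent contigs would also vary less, so this contrast alone does not show cancelling. The variance of the sum within groups divided by the summed variances of the contigs would be about 1 if sisters varied independently, and lies below 1 where their deviations cancel. It was below 1 in 34 of the 36 clusters (94.4%), with a median of 0.298, and below 0.1 in 10 (27.8%). In the 2211 other clusters of 2 or more contigs the median was 0.512, with 82.2% below 1 and 11.9% below 0.1. In those of them with a sum of at least 5 FPKM in every group it was 0.403, with 85.4% below 1 and 14.98% below 0.1. CL29 had the lowest value of the 36, 0.00855, and CL1817 the highest, 1.55. In CL29 the sums were 38.6, 38.8 and 38.0 FPKM in the IAA libraries of day 1, while CL29.Contig17_All had 15.6, 10.4 and 3.97 FPKM in the same libraries. Among clusters with at least 6 contigs, the median was 0.180 in 19 of the 36 and 0.263 in the 164 other steady clusters of like level. Cancelling between sisters within groups was thus found in most clusters of this assembly, and its part in the differences between IAA and control was not tested.

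**Figure D5:**
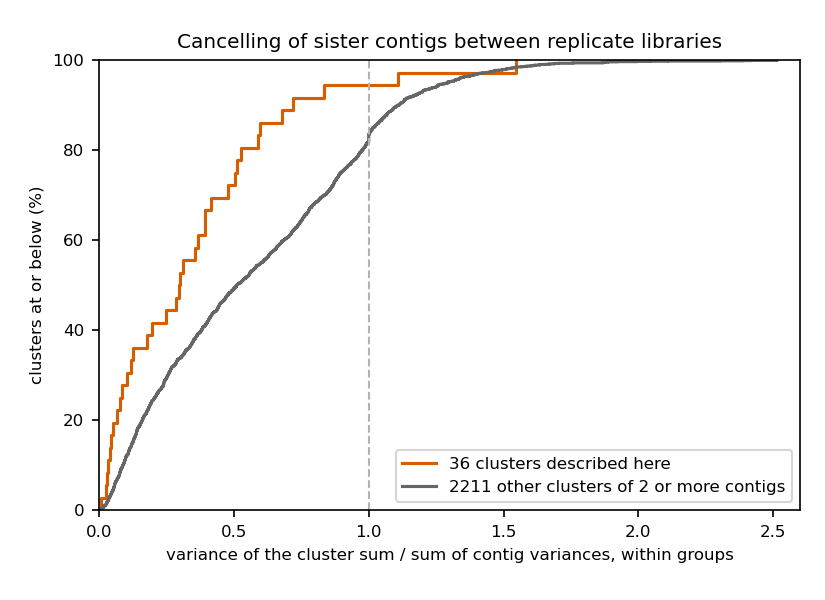
Cumulative percentage of clusters (vertical) by the variance of the cluster sum over the sum of contig variances within groups (horizontal), for the 36 clusters and the 2211 others; the dashed line at 1 marks independent variation of sisters. The curve of the 36 runs above that of the others up to about the dashed line, with medians of 0.298 and 0.512.

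Of the 42 chosen contigs, 16 were listed at 0 in at least 1 library, and 4 were at 0 in all 3 libraries of a group (CL116.Contig2_All, CL239.Contig6_All, CL29.Contig21_All and CL716.Contig2_All). All 4 were at 0 in the IAA libraries of day 1. Neither count was made for other contigs, and the rule of a large difference without overlap can favour groups at 0. CL239.Contig6_All had 9.52, 6.70 and 3.15 FPKM in the day-1 controls, and its sister CL239.Contig4_All had 31.3, 32.2 and 32.0 FPKM in IAA and 22.1, 25.1 and 29.1 FPKM in control. A contig at 0 in 1 library and at 5 FPKM or more in another library of the same group was seen for 3 of the 42 contigs (7.14%), for 3 of the 116 other contigs of the 36 clusters that reached 5 FPKM in a library (2.59%), and for 63 of 3690 such contigs of other clusters (1.71%). A value of 0 for a single contig can therefore occur beside a replicate with a clear level.

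In the authors' deposited table of changed sequences, all 25 chosen contigs of day 1 were listed with the same direction, and so were all 19 of day 3 in the authors' deposited table of that day. The authors' deposited tables list 60 of the 270 contigs at day 1 and 61 at day 3. Of all 7493 cluster contigs they list 599 at day 1 and 828 at day 3. Contigs in both directions within 1 cluster were listed for 12 of the 36 clusters at day 1 and 7 at day 3 in the authors' deposited tables, and for 57 and 55 of the 1589 other steady clusters. The 36 held more contigs, with a median of 6 against 2, and were chosen for a strongly different contig under a steady sum. Nothing is read from their higher share for that reason. The lists were made from the same libraries and add no independent measurement.

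Near the limits of the rule, values on both sides were close. The sum of CL270 differed by 0.28 between IAA and control at day 1 and was kept, while that of CL56 differed by 0.33 and was not. Over time the sum of CL36 differed by 0.45 and that of CL557 by 0.58, on either side of 0.5. CL42.Contig2_All had a difference of 1.01 and CL798.Contig2_All of 0.97, on either side of 1. The highest group mean was 5.10 FPKM for CL484.Contig33_All, inside, and 4.80 FPKM for CL1174.Contig3_All, outside. With a highest group mean of at least 10 FPKM the rule kept 17 clusters, and with a difference of at least 1.5 it kept 13.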

How the data were processed

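RNA from 12 libraries was measured in the deposited table of FPKM values, made by the authors with 2 decimals per value, per the file headers. Bowtie2 2.2.5 is listed in the submitters' processing notes, with no role. No source used here gives the assembler or the quantifier. For each day the authors deposited a list of sequences they called changed, holding a log2 ratio, a p-value and a q-value, per the file headers. No source used here states how these were tested, and only presence and direction were read from these lists.

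FPKM were summed per cluster, and shares are a contig's FPKM over that sum in each library. Groups follow the labels. The test was limma 3.58.1 (R 4.3.3) on log2(FPKM + 1) with 4 group means, a variance trend, a filter of a mean of at least 1 FPKM (14065 sequences) and Benjamini-Hochberg adjustment, two-sided; changes on this scale are understated for low contigs. Whole reads could not be recovered for cluster contigs, so no count test was run. The rule and test scripts were tested on simulated data. Equal replicate numbers did not mark libraries that deviated together, so no block was used.

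The clusters, the rule and the tests were chosen with earlier results of these data known. Clusters named are the 2 of largest share difference per day among those with a contig chosen that day, those of the largest calls on the other day in each direction, 1 per pattern with 3 or more contigs, and those nearest each limit; the clusters of at least 6 contigs were compared after seeing the data. Alternatives tried were other pseudocounts, no filter, 2 scalings, a replicate block, other limits and leaving out each library.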

Additional observations from a re-analysis of the deposited data

Results flagged for a closer look

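In 4 of the 42 chosen contigs the IAA libraries all lay on one side of the controls at day 1 and all on the other side at day 3. This was not counted over other contigs. The contigs were chosen on these contrasts, so the difference between days was not tested, and none is explained here. For CL116.Contig2_All the IAA effect on the log2(group mean FPKM + 1) scale was 1.91 at day 3 and -3.32 at day 1, a difference of 5.23. For CL29.Contig21_All it was 0.39 at day 3 and -2.21 at day 1, a difference of 2.61; it had 8.24, 6.85 and 7.25 FPKM in IAA and 6.39, 3.57 and 6.32 FPKM in control at day 3, and was listed at 0 in all IAA libraries against 4.66, 3.90 and 2.34 FPKM in controls at day 1. For CL1301.Contig1_All it was -0.88 at day 3 and 1.22 at day 1, a difference of -2.10. For CL42.Contig2_All it was -0.85 at day 3 and 1.01 at day 1, a difference of -1.85; it had 6.55, 5.29 and 4.33 FPKM in IAA and 10.5, 10.9 and 10.1 FPKM in control at day 3, and 5.48, 6.23 and 6.29 FPKM in IAA and 2.19, 2.78 and 2.47 FPKM in control at day 1.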

How the results depend on the processing

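No contig called on the other day with all libraries reversed its direction under any alternative tried. This was checked for those contigs only, and the counts by direction did shift. Against 36 clusters and a median share difference of 11.04% over both days, the rule gave 17 clusters at 15.6% with a group mean of at least 10 FPKM, 13 at 13.96% with a difference of at least 1.5, 17 at 14.6% with median-of-ratios size factors, 29 at 12.3% with steady limits of 0.2 and 0.33, and 45 at 12.7% with a pseudocount of 0.1 FPKM. Leaving out 1 library gave 38 to 45 clusters at 8.95% to 12.5%. Fewer libraries make the condition of no overlap easier to meet. Day-3 calls of the 25 contigs ranged from 5 to 7 when 1 library was left out, and day-1 calls of the 19 from 3 to 5. Median-of-ratios scaling gave 7 of the 25 at day 3 and 2 of the 19 at day 1. Without replicate 2 of the day-3 controls, 4 of the day-3 calls went in the same direction, against 2 with all libraries. The call of CL487.Contig2_All at day 3 (adjusted p = 0.0373) was lost without a filter (0.0711), with the replicate block (0.0508) and without replicate 1 or 3 of the day-3 IAA libraries or replicate 2 or 3 of their controls (0.0994 to 0.133). Replicate numbers did not pair the libraries (correlation of deviations -0.0587 to 0.0604 over 18 pairs of equal number); with a replicate block 5 of the 25 passed at day 3 and 5 of the 19 at day 1, 2 of them in the same direction and 3 in the opposite direction. The within-group ratio was 0.256 to 0.335 for the 36 clusters and 0.491 to 0.533 for the others when 1 library was left out, and 0.403 for others of at least 5 FPKM; 12 to 17 contigs were high in 1 group. The limits are the unknown absolute depth, the division of reads between sisters, and 3 libraries per group. The cause of these shifts was not tested.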
